A study of Canis lupus familiaris with 51 samples.

Results

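Splenic hemangiosarcomas from Golden Retrievers were compared with splenic hemangiosarcomas from dogs of other breeds. Samples were chosen by label alone, as tumours with the tissue label spleen, split by whether the breed label was Golden Retriever. This gave 20 Golden Retriever and 12 other tumours, 32 of the 51 tumours in the series. The other tumours carried 8 breed labels: German Shepherd Dog (3 tumours), Keeshond (2), Portuguese Water Dog (2), and Boxer, Briard, Bullmastiff, Gordon Setter and Labrador Retriever (1 each). All samples were tumours, with no treatment given in the labels. The Golden Retrievers were 10 females and 10 males, of which 9 were intact and 11 neutered, aged 10 ± 2.52 years at diagnosis (SD, range 3 to 13.6). The other dogs were 6 females and 6 males, of which 3 were intact and 9 neutered, aged 10.5 ± 1.37 years (SD, range 8.5 to 13.5). The class of other breeds is a pool of unequal parts, and whether each tumour is from its own dog is not stated in the labels, so a p-value here reflects variation among these samples, which may be partly technical.

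Hemangiosarcoma is a malignant tumour of cells related to the lining of blood vessels, and in dogs the spleen is among its most common sites. Golden Retrievers are among the breeds in which it is often diagnosed. A dog breed is a closed population that shares much of its inherited variation, so that breeds can differ in the expression of single genes through inherited variants, while tumours also differ from each other through their cell content. A splenic tumour sample can hold tumour cells, blood cells, immune cells and stroma. Fewer cells of a type and less RNA per cell cannot be told apart in such bulk samples.

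Expression was given as FPKM, the number of fragments on a gene scaled by its length and by how many fragments the library mapped. The genes carry Ensembl identifiers only, and 0 of the 16382 could be paired with a symbol, so the tissue label could not be checked against marker genes and no function is given for any gene. The libraries of both classes were compared first. The number of genes at 1 FPKM or more was 11199 ± 214 in Golden Retrievers and 11206 ± 256 in other breeds (SD), and relative depth, read from the steps between low FPKM values, was 1.07 ± 0.33 and 1.05 ± 0.23 (SD). Of 5 library measures 0 differed between classes (permutation test, smallest p = 0.769, adjusted p = 0.93). Age (permutation p = 0.528), sex (Fisher's exact p = 1), neuter status (p = 0.452) and the title prefixes CHAD or DHSA (p = 0.626, both by Fisher's exact test) did not differ detectably either.

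The question was which transcripts differ between tumours of this breed and those of other dogs in 1 organ. No gene passed the test. Of 12645 genes that reached 1 FPKM in 3 or more of the 32 tumours, limma called 0 at an adjusted p under 0.05 (0% of genes tested), and the smallest adjusted p was 0.233. Before adjustment 260 genes (2.06% of those tested) had a p under 0.05. Golden Retrievers had the higher level in 113 of these and the lower level in 147. The median difference was 0.0035 on the log2(FPKM + 1) scale, and 50.9% of genes had a positive difference. Leaving out the Gordon Setter tumour gave 1 called gene (adjusted p = 0.0179), the identifier ENSCAFG00000008873 described below, and leaving out any of the other 31 tumours gave 0. A fit that gives less weight to libraries far from the model called 3 genes, which had ranks 1, 3 and 4 by p with equal weights and include ENSCAFG00000008873 and ENSCAFG00000008634.

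**Figure D1:**
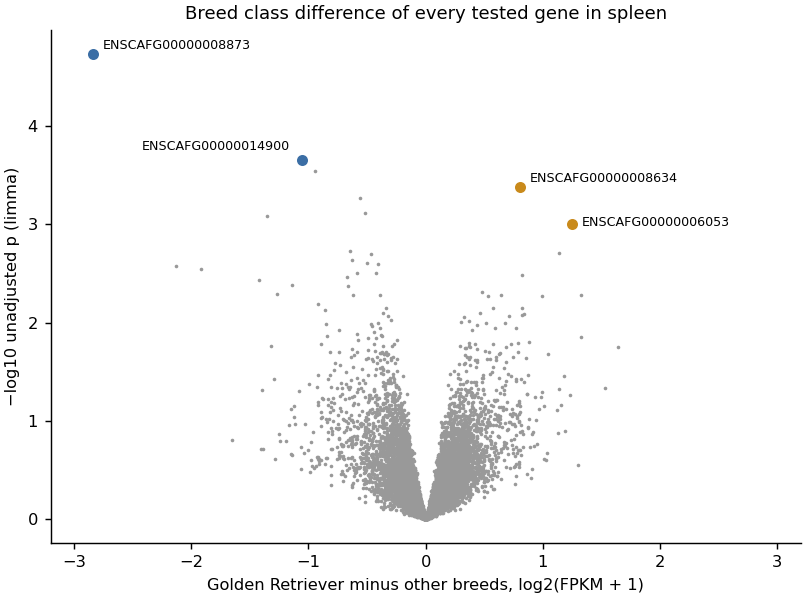
Each point is 1 of 12645 genes, with the Golden Retriever minus other breeds difference in mean log2(FPKM + 1) on the x axis and −log10 of the unadjusted limma p on the y axis. The 4 labelled genes are ENSCAFG00000008873 (difference -2.84) and ENSCAFG00000014900 (-1.06) on the lower side and ENSCAFG00000008634 (0.81) and ENSCAFG00000006053 (1.25) on the higher side, and 0 genes passed after adjustment.

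For most genes the data bounded the size of a breed difference. The 95% confidence interval of the breed difference lay between -1 and 1 on the log2(FPKM + 1) scale for 10795 of 12645 genes (85.4%), and between -0.5 and 0.5 for 5955 (47.1%). The median interval extended 0.392 to either side. Among the 9627 genes whose mean in these tumours was 5 FPKM or more, 84.7% had intervals within 1 of zero. An estimated difference of at least 1 in size was found for 50 genes, 19 higher and 31 lower in Golden Retrievers, and none of these passed after adjustment.

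ENSCAFG00000008873 had the smallest p of all genes and the largest difference. In Golden Retriever spleen tumours its lowest, median and highest values were 3.98, 9.61 and 160 FPKM, and in other breeds they were 10.5, 189 and 335 FPKM. All 20 Golden Retriever tumours lay below the median of the other breeds, 12 of them lay below the lowest of the other breeds, and 7 of the other tumours lay above the highest Golden Retriever value. The gene was picked by its p in these same tumours, so the counts are no separate support. The means were 41.6 ± 54.1 and 186 ± 109 FPKM (SD), a log2 difference of -2.84 ± 0.57 (SE, 95% interval -3.99 to -1.68, limma unadjusted p = 1.84e-05, adjusted p = 0.233). Whether it was called depended on the fit: with array weights and all tumours the difference was -2.91 (limma adjusted p = 0.0449), and without the Gordon Setter tumour it was -3.17 (limma adjusted p = 0.0179).

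The values of this gene fell into separate levels. No spleen tumour lay between 15.1 and 65.7 FPKM, a gap of 2.05 on the log2 scale. Above the gap were 6 of 20 Golden Retriever tumours (30%) and 11 of 12 tumours of other breeds (91.7%). The single low tumour among other breeds was that of the Gordon Setter, with 10.5 FPKM. The Keeshond tumours had 267 and 335 FPKM, the German Shepherd Dog tumours 121, 304 and 319, and the Portuguese Water Dog tumours 84.3 and 100. The Bullmastiff had 177, the Boxer 202, the Labrador Retriever 247 and the Briard 70.7 FPKM. In Golden Retrievers the tumours above the gap were 1 of 3 intact females, 2 of 7 neutered females, 2 of 6 intact males and 1 of 4 neutered males, so both levels occurred in each sex and neuter class of the breed.

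Other genes also had such gaps, and in 8 of them, this gene included, the share above the gap differed between classes by more than 30 percentage points. Gaps of at least 1 on the log2 scale with at least 5 spleen tumours on each side were found for 111 genes, and that of ENSCAFG00000008873 was the 5th widest. The share of tumours above the gap was lower in Golden Retrievers for 67 of the 111 genes and higher for 35. The median difference in share was -1.67 percentage points, with a 10th percentile of -23.3 and a 90th of 11.7. For ENSCAFG00000008873 it was -61.7 points, the largest of the 111. The gene with the second widest gap, between 9.71 and 54.9 FPKM, was above it in 15 of 20 Golden Retriever and 12 of 12 other tumours. No test was run on these counts, since the gaps were found from the same values.

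ENSCAFG00000014900 was the other gene with the smallest p on the lower side. Golden Retriever spleen tumours had a lowest, median and highest value of 2.79, 5.38 and 15.1 FPKM, and other breeds of 4.32, 15.4 and 28 FPKM. The gene was picked by its p in these same tumours, so counts of their overlap are no separate support. The classes overlapped. All 20 Golden Retriever tumours lay below the median of other breeds, and 11 of the 12 other tumours lay above the Golden Retriever median. The exception was a Portuguese Water Dog tumour at 4.32 FPKM, while the other tumour of that breed had 27.1 FPKM. The means were 7.77 ± 4.35 and 17 ± 7.75 FPKM (SD), a log2 difference of -1.06 ± 0.26 (SE, limma unadjusted p = 0.000223, adjusted p = 1). It was -1.76 in male dogs, with means of 6.17 ± 3.99 FPKM (SD, n = 10) and 21.6 ± 6.53 FPKM (SD, n = 6), and -0.36 in female dogs. The breed by sex interaction of this gene was -1.4 ± 0.46 (SE), which did not pass after adjustment (limma adjusted p = 0.698).

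ENSCAFG00000008634 had the smallest p on the higher side. It is also the single gene called with spleen, heart and liver tumours fitted together (log2 difference 1.05, limma adjusted p = 0.0097). Its values in heart and liver are therefore no separate support. Over the 43 spleen and heart tumours alone, this gene had a difference of 0.99 and was not called (limma adjusted p = 0.0531). Its lowest, median and highest values in spleen were 2.32, 7.38 and 14.2 FPKM in Golden Retrievers and 0.909, 3.93 and 7.3 FPKM in other breeds. Above every tumour of other breeds lay 10 Golden Retriever tumours, and below every Golden Retriever tumour lay 3 of the others. The gene was picked with these tumours included, so the counts are no separate support. The means were 7.75 ± 3.01 and 4.12 ± 2.01 FPKM (SD), a log2 difference of 0.81 ± 0.2 (SE, limma unadjusted p = 0.00042, adjusted p = 1). The lowest tumours of other breeds were those of the Keeshonds, with 0.909 and 1.8 FPKM, and without them the difference was 0.6. It was 0.46 in intact dogs, and with array weights over all spleen tumours it was 0.93 (limma adjusted p = 0.0449). In heart, 5 of 6 Golden Retriever tumours had between 8.17 and 14.3 FPKM and the remaining 1 had 1.76. The 5 heart tumours of other breeds had 1.34, 1.84, 2.31, 2.34 and 3.28 FPKM.

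ENSCAFG00000006053 was the next gene on the higher side. Its lowest, median and highest values in spleen were 0.225, 4.57 and 10.6 FPKM in Golden Retrievers and 0.148, 0.582 and 8.15 FPKM in other breeds. The highest value among other breeds came from the Labrador Retriever. The other 11 tumours of that class had at most 1.13 FPKM. In Golden Retrievers 15 tumours had 2.38 FPKM or more and 5 had 0.869 FPKM or less, so that none lay between these values. Tumours of other breeds did lie between them, with 1.01, 1.12 and 1.13 FPKM. The gene was picked by its p in these same tumours, so the counts are no separate support. The means were 4.5 ± 3.31 and 1.26 ± 2.19 FPKM (SD), a log2 difference of 1.25 ± 0.35 (SE, limma unadjusted p = 0.001, adjusted p = 1). With a pseudocount of 0.1 the difference was 1.88, and without the Labrador Retriever tumour it was 1.46 (limma adjusted p = 0.356).

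**Figure D2:**
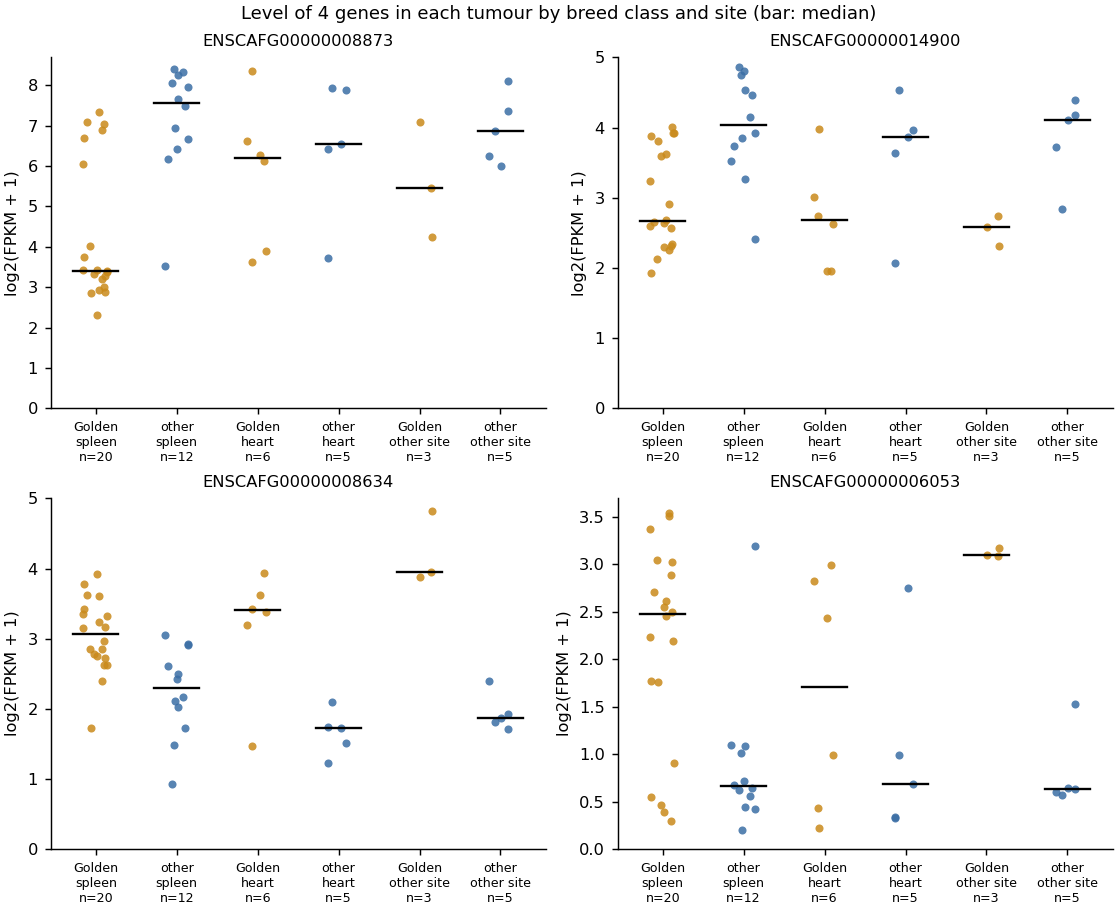
Each point is 1 of 51 tumours, with log2(FPKM + 1) of a gene on the y axis and breed class and site on the x axis, and bars mark medians. In spleen, ENSCAFG00000008873 shows a low and a high level with 6 of 20 Golden Retriever and 11 of 12 other tumours at the high level, and ENSCAFG00000006053 is at 1.13 FPKM or less in 11 of 12 tumours of other breeds.

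The same genes were looked up in the 19 tumours without a spleen label, a set chosen after seeing the data. The 9 Golden Retriever tumours were 6 from heart, 1 from liver, 1 labelled only as metastatic tumor and 1 of undetermined histogenic origin, and for the last 2 the organ is not known. They came from 4 females and 5 males, 4 intact and 5 neutered, aged 0.7 to 11.3 years. The 10 tumours of other breeds were 5 from heart, 2 from liver, 1 cutaneous and 2 abdominal masses, for which the labels give no organ. These 10 came from 6 females and 4 males, 4 intact and 6 neutered, aged 5.9 to 11.2 years. ENSCAFG00000014900 had a mean of 5.9 ± 3.6 FPKM in the Golden Retrievers (SD, n = 9) and 13.7 ± 5.83 FPKM in the others (SD, n = 10). Its log2 difference was -1.08 (exact permutation test, two-sided, p = 0.00507), and 8 of the 9 Golden Retriever tumours lay below the median of the others. ENSCAFG00000006053 had 4.67 ± 3.31 and 1.18 ± 1.66 FPKM (SD), a log2 difference of 1.23 (exact permutation p = 0.0194). Its highest values among the 10 other tumours were 5.72 FPKM in the heart tumour of a Labrador retriever and 1.89 FPKM in the metastatic abdominal mass of a Lab/Husky Mix. ENSCAFG00000008873 had 88 ± 99.2 and 136 ± 88.6 FPKM (SD), and its difference of -0.97 did not pass (exact permutation p = 0.16). These 3 p-values are not adjusted, the groups mix sites, and none of the 3 genes passed in heart alone.

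The heart tumours of Golden Retrievers came from 1 female and 5 males, 3 intact and 3 neutered, aged 8.4 to 10.9 years, and those of other breeds from 2 females and 3 males, 2 intact and 3 neutered, aged 5.9 to 11.2 years. The heart differences were -0.91 for ENSCAFG00000014900 (exact permutation p = 0.102), 0.63 for ENSCAFG00000006053 (p = 0.416) and -0.68 for ENSCAFG00000008873 (p = 0.589), with 6 against 5 tumours. For ENSCAFG00000008873 the heart tumours of Golden Retrievers ran from 11.3 to 328 FPKM with a median of 72.9. Those of other breeds had 12.3 FPKM in the Saluki, 84 in the Border Collie Mix, 92.1 in the Labrador retriever, 234 in the Portuguese Water Dog and 244 in the Bernese Mountain Dog. At the step that divides the spleen tumours, 4 of 6 Golden Retriever and 4 of 5 other heart tumours lay on the high side. The test of the difference between organs gave 2.16 ± 1.13 for this gene (SE, heart minus spleen, limma adjusted p = 0.999).

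Across all genes, limma called 0 of 11895 genes between the classes in heart (0%, smallest adjusted p 0.0725). Before adjustment 803 genes (6.75%) had a p under 0.05, 205 higher and 598 lower in Golden Retrievers. Leaving out single heart tumours gave up to 6 genes: 6 without Golden Retriever heart 5, 5 without the Bernese Mountain Dog, 2 without Golden Retriever heart 3, and 1 each without Golden Retriever heart 2 or the Saluki. The breed by organ interaction called 0 of 12844 genes (0%), and 551 genes (4.29%) had a p under 0.05 before adjustment.

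The 10 genes with the smallest p in each direction in spleen were set beside their heart values. The 10 higher in Golden Retrievers had spleen differences from 0.48 to 1.33 and a median of 0.82 on the log2 scale. In heart 6 of the 10 had the same sign, with a median difference of 0.36, and 1 had an unadjusted p under 0.05. That gene was ENSCAFG00000008634, already called with the spleen, heart and liver tumours together, so its heart value is no separate support. The 10 lower in Golden Retrievers had spleen differences from -0.46 to -2.84 and a median of -0.64. In heart 6 of the 10 had the same sign, with a median of -0.11, and 0 had an unadjusted p under 0.05. All genes tested in heart had a median difference of -0.014, and 47.8% of them had a positive difference.

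**Figure D3:**
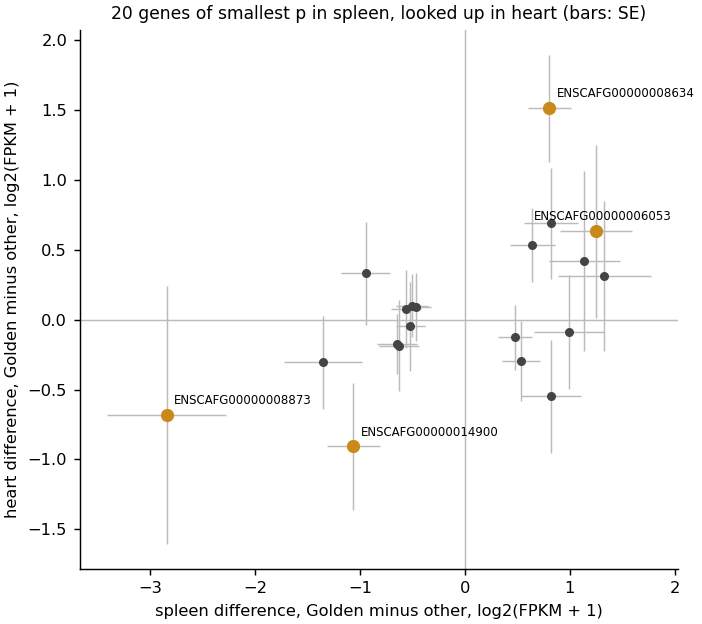
Each point is 1 of the 20 genes with the smallest p in spleen (10 in each direction), with the Golden Retriever minus other breeds difference on the log2(FPKM + 1) scale in spleen on the x axis and in heart on the y axis, and bars are SE. The 4 named genes (coloured) have the same sign in both organs, as do 12 of the 20 genes in all. Of the 4, ENSCAFG00000008634 was already called in a fit that included these heart tumours. Among all genes tested in heart, 47.8% had a positive difference.

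Among the genes that were not named, levels ranged widely. The gene ranked 3 on the lower side had 17.8 ± 9.71 FPKM in Golden Retrievers and 33.9 ± 13.4 in other breeds (SD), a log2 difference of -0.94 ± 0.23 (SE, limma adjusted p = 1), but 0.33 in heart. The gene ranked 3 on the higher side had 22.1 ± 12.1 and 10.4 ± 7.93 FPKM (SD), a difference of 1.14 ± 0.34 in spleen and 0.42 in heart. The highest Golden Retriever mean of the 20 was that of the gene ranked 4 on the higher side, with 158 ± 78.4 and 96.8 ± 59.3 FPKM (SD), and differences of 0.82 in spleen and 0.69 in heart.

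Whether the breed difference depended on sex or neuter status was tested with interaction terms over the 32 spleen tumours. limma called 0 of 12645 genes for the breed by sex interaction (0%), and 796 genes (6.29%) had a p under 0.05 before adjustment. For the breed by neuter status interaction the count was likewise 0 (0%), and 332 genes (2.63%) had a p under 0.05 before adjustment. The median standard error was 0.382 for the interaction with sex and 0.424 for that with neuter status. Fits within females, males, neutered or intact dogs alone each called 0 genes, with 521, 435, 344 and 183 at an unadjusted p under 0.05. The 4 named genes kept the sign of their difference in each of these subsets. The subsets are parts of the tumours from which these genes were picked, so the kept signs are no separate support. For ENSCAFG00000008873 the difference was -3.28 in neutered dogs and -1.86 in intact dogs, and -2.39 and -3.28 in females and males.

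Because the second class pools many breeds, its tumours could vary more among themselves. The deviation of each tumour from the median of its class was compared between classes, and limma called 0 of 12645 genes (0%, smallest adjusted p 0.775). Before adjustment 420 genes (3.32%) had a p under 0.05, of which 302 had the smaller deviation in Golden Retrievers and 118 the larger. The median difference in deviation was -0.02 on the log2 scale.

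No measure of the whole profile differed detectably between the breed classes. The mean correlation between tumours was 0.869 among Golden Retrievers, 0.853 among other breeds and 0.864 between the classes. The within-class mean exceeded the between-class mean by 0.00106 (permutation p = 0.874). A Golden Retriever tumour had a mean correlation with the other Golden Retrievers of between 0.78 and 0.911, with a median of 0.876. Tumours of other breeds had values between 0.791 and 0.905 with a median of 0.872, the lowest being those of the Gordon Setter (0.791) and of a Keeshond (0.793) and the highest that of a German Shepherd Dog (0.905). On the first principal component, which took up 23.4% of the variance, scores were -4.52 ± 44.8 in Golden Retrievers and 7.54 ± 36.1 in other breeds (SD, permutation p = 0.433, adjusted p = 0.835 over 5 components). Of 5 components 0 passed, and the smallest p was 0.413.

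**Figure D4:**
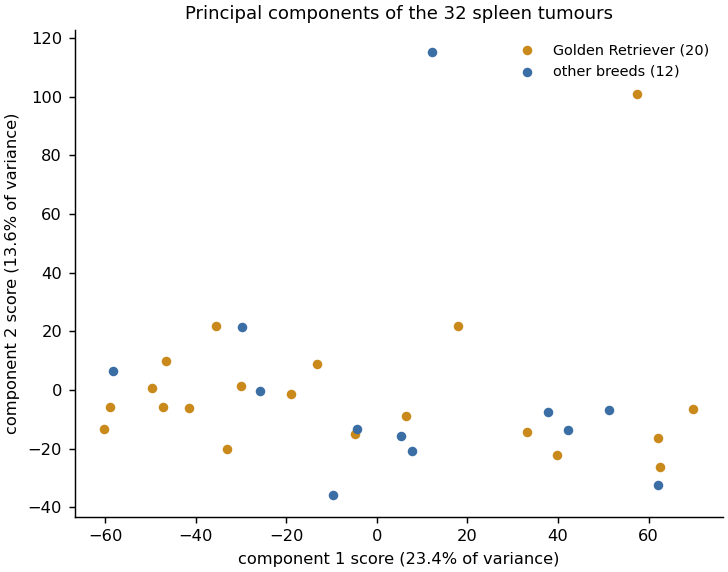
Each point is a spleen tumour, placed by its scores on the first (x axis, 23.4% of variance) and second (y axis, 13.6%) principal component of log2(FPKM + 1), and colours mark the breed class. Both classes span the first component, from -60.3 to 69.8 in Golden Retrievers and from -58.4 to 62.2 in other breeds.

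Groups of genes that vary together across the 32 tumours were compared as well. Built without breed labels, 18 modules held 2027 genes, and the level of a module was taken as the average of its genes on the log2(FPKM + 1) scale. None of the 18 passed the test between classes (permutation test, smallest p = 0.183, adjusted p = 0.862), and 0 had an unadjusted p under 0.05. The largest, with 499 genes, was at 3.26 ± 1.04 in Golden Retrievers and 3.46 ± 0.93 in other breeds (SD), and the second, with 314 genes, at 4.28 ± 1.02 and 4.05 ± 0.89 (SD). The smallest p belonged to a module of 25 genes at 4.62 ± 0.88 and 4.19 ± 0.83 (SD). The differences were thus smaller than the spread within a class, which for the largest module ran from 1.87 to 4.88 among Golden Retrievers.

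Single breeds with at least 2 spleen tumours were set against the 20 Golden Retrievers in 1 fit of 27 tumours and 12554 genes. limma called 1 gene for the Portuguese Water Dog (0.00797%), 1 for the German Shepherd Dog (0.00797%) and 4 for the Keeshond (0.0319%), and before adjustment 341 (2.72%), 560 (4.46%) and 1827 (14.6%) genes had a p under 0.05. The identifiers printed from here on were chosen after their values were seen. With 2 or 3 tumours a breed, the calls depended on single libraries: for the German Shepherd Dog the count was 0 without other breed spleen 3 or 6 and 2 without other breed spleen 8. For the Keeshond it was 1 without other breed spleen 5 and 1015 without other breed spleen 2. For the Portuguese Water Dog it was 1 without other breed spleen 1 and 39 without other breed spleen 12. With 1 tumour left in a breed, that tumour is assumed to vary like those of the other breeds.

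ENSCAFG00000011417 was the gene called for the Portuguese Water Dog. Its spleen tumours of that breed had 126 and 75.2 FPKM, against a lowest, median and highest value of 0.613, 1.45 and 2.41 FPKM in the Golden Retrievers. The log2 difference was 5.38 ± 0.68 (SE, limma adjusted p = 0.000286). It was 5.01 without other breed spleen 1 (limma adjusted p = 0.114) and 5.45 with array weights (limma adjusted p = 0.195). Over the whole series the gene was high in 4 tumours and low in 47, with no value between 2.55 and 48.8 FPKM. The other high values were 91.5 FPKM in 1 of 3 German Shepherd Dog spleen tumours and 48.8 FPKM in the liver tumour of a Portuguese Water Dog. The heart tumour of a Portuguese Water Dog had 1.41 FPKM. The gene was picked by the difference between the 2 Portuguese Water Dog and 20 Golden Retriever spleen tumours. Their values are therefore no separate support. Among tumours without a spleen label the breed had this low heart tumour and the high liver tumour, and all 9 Golden Retriever tumours were low.

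**Figure D5:**
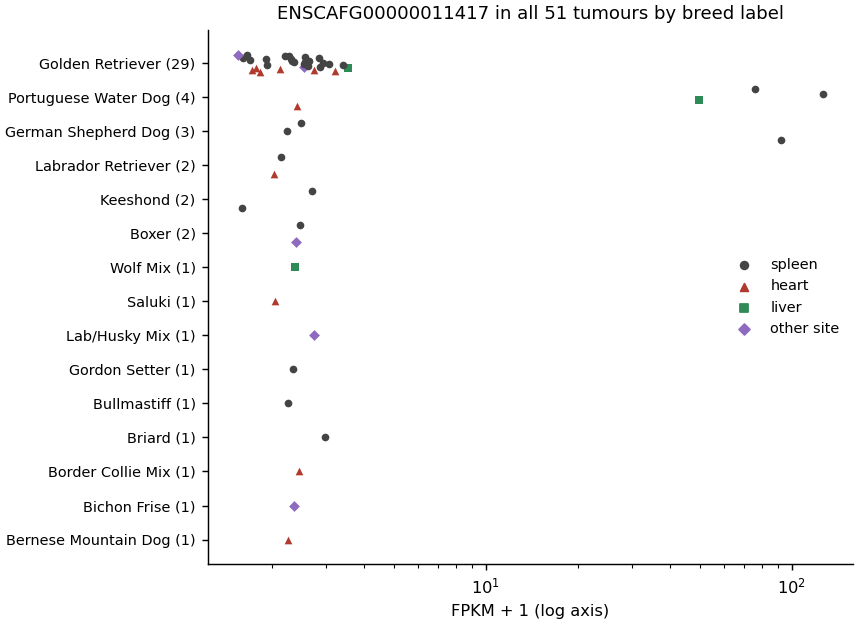
Each point is 1 of 51 tumours, with FPKM + 1 of ENSCAFG00000011417 on a log x axis, breed label (number of tumours) on the y axis and site as marker shape. Tumours at 48.8 FPKM or more carry the label Portuguese Water Dog (3) or German Shepherd Dog (1), and the other 47 lie at 2.55 FPKM or less.

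ENSCAFG00000002209 was called for the German Shepherd Dog. Its spleen tumours of that breed had 12.6, 21.8 and 8.36 FPKM, all above the highest Golden Retriever spleen value of 5.4. The Golden Retriever spleen tumours averaged 4.06 ± 0.68 FPKM (SD). The log2 difference was 1.51 ± 0.25 (SE, limma adjusted p = 0.0261). It lost its call without other breed spleen 3 (limma adjusted p = 0.13) or other breed spleen 6 (limma adjusted p = 0.734), and with quantile normalization (limma adjusted p = 0.0816). Values as high were seen in other dogs, with 13.6 FPKM in a Portuguese Water Dog spleen tumour and 22.9 FPKM in a Golden Retriever heart tumour.

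ENSCAFG00000008092 was the single gene called lower in the Keeshond. Both tumours of that breed, at 2.77 and 1.7 FPKM, lay below every Golden Retriever spleen tumour (7.23 to 27.9 FPKM). They also lay below the 10 spleen tumours of the remaining breeds (9.21 to 23.1 FPKM). Among tumours without a spleen label, the metastatic abdominal mass of a Lab/Husky Mix had 3.48 FPKM. The Golden Retriever tumour of undetermined histogenic origin had 3.92 FPKM. The log2 difference was -2.3 ± 0.36 (SE, limma adjusted p = 0.00655). It was -2.06 without other breed spleen 5 (limma adjusted p = 0.299) and -2.35 with array weights (limma adjusted p = 0.171). Of the 3 genes called higher in the Keeshond, ENSCAFG00000012368 had the smallest p. It had 10.3 and 1.93 FPKM in the Keeshond tumours and at most 1.08 in the Golden Retriever spleen tumours. Of the latter, 10 were listed at 0. Among tumours without a spleen label, the Golden Retriever metastatic tumor had 11.9 FPKM, above both Keeshond tumours. The next highest there was 3.44 FPKM, in the heart tumour of a Bernese Mountain Dog. The log2 difference in spleen was 2.36 ± 0.3 (SE, limma adjusted p = 0.000356). With a pseudocount of 0.1 it was 4.75 (limma adjusted p = 0.0305), so the size of this difference is set largely by the pseudocount. Without either Keeshond tumour this gene no longer met the filter on low values. It was thus tested only through the tumours in which it was high, and its p-value is no separate support.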

How the data were processed

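RNA-seq expression of 51 canine hemangiosarcomas was deposited by the authors as 1 table of FPKM values for 16382 Ensembl gene identifiers. Per the submitters' processing notes, the tools were FastQC 0.11.2, TopHat 1.4.1 and Cuffdiff with the CanFam 3.1 build. For Cuffdiff's version, the annotation, strand and scaling between libraries, nothing is given in the sources used here. Read totals are not in the table, so relative depth was estimated from the steps between values of 1662 low genes and gives no absolute count; the precision of low values is therefore unknown.

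Groups came from the tissue and breed labels. Values were taken as log2(FPKM + 1), so that fold changes of low genes are understated, and a gene was tested where 3 or more of the tumours in a fit reached 1 FPKM, using limma 3.58.1 (R 4.3.3, intensity trend, Benjamini-Hochberg adjustment over all genes tested, threshold 0.05). Spleen classes were fitted without covariates on the 32 spleen tumours; interactions, heart and single breeds were fitted separately. Component scores, modules (at least 25 genes, among the 3000 most variable), correlations and library measures were compared by two-sided permutation tests with 100000 resamples (numpy 2.4.6). Single genes in tumours without a spleen label were compared by exact permutation tests. Fisher's exact tests and the grouping of genes into modules used scipy 1.17.1. The set of 19 tumours without a spleen label and the omission of single tumours in the breed fits were chosen after seeing the data. Tests were tried on simulated data first.

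The comparison and genes were chosen with earlier results of these data known. Because no identifier could be paired with a symbol in the RefSeq table (assembly UU_Cfam_GSD_1.0), at most 4 identifiers are printed for the breed classes: ENSCAFG00000008634 and the other gene with the smallest p on the higher side, and the 2 with the smallest p on the lower side. Other genes are given by rank. Gene lists, cell type markers, sequences and positions were not used here.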

Additional observations from a re-analysis of the deposited data

Results flagged for a closer look

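In 24 groups of 5 to 10 tumours, the highest or lowest value of a named gene was compared with its nearest neighbour. In 4 groups a value was set far apart by Dixon's criterion. Chance gives about 1 in 20 groups where values follow a normal distribution. FPKM was used here without a log, and whether that rate holds for these values was not tested. ENSCAFG00000006053 had 8.15 FPKM in the spleen tumour of the Labrador Retriever, where the next of the males of other breeds had 1.01, and 5.72 FPKM in the heart tumour of a Labrador retriever, where the next heart tumour of other breeds had 0.988. Golden Retriever heart 2 had 328 FPKM of ENSCAFG00000008873, with 97 in the next Golden Retriever heart tumour, and 14.8 FPKM of ENSCAFG00000014900, with 7.03 in the next.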

How the results depend on the processing

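The count of 0 genes between breed classes in spleen held in 21 of 23 other settings. Array weights gave 3 and the 46 spleen, heart and liver tumours with organ as a covariate gave 1, and leaving out single tumours gave 0 to 1. The 4 named genes kept their direction in every setting run, with ranges of -3.28 to -1.86 (ENSCAFG00000008873), -1.76 to -0.36 (ENSCAFG00000014900), 0.46 to 1.05 (ENSCAFG00000008634) and 0.87 to 1.88 (ENSCAFG00000006053). The settings reuse the spleen tumours from which these genes were picked, so the kept directions are no separate support. Array weights gave 1 gene in heart, 12 for breed by neuter status, 5 for breed by organ, 3 for the German Shepherd Dog, 1 for the Keeshond and 0 for the Portuguese Water Dog. With no filter the counts were 1 for breed by sex, 1 for spread, 3 for the German Shepherd Dog, 16 for the Keeshond and 3 for the Portuguese Water Dog. Quantile normalization gave 0 for the German Shepherd Dog and 8 for the Keeshond, a pseudocount of 0.1 gave 2 for the German Shepherd Dog, and a mean of at least 5 FPKM gave 1 for the Keeshond. Leaving out single tumours gave 0 to 6 genes in heart, 0 to 2 for the German Shepherd Dog, 1 to 1015 for the Keeshond and 1 to 39 for the Portuguese Water Dog. The excess of within-class over between-class correlation turned to -0.00224 with DHSA titles only and -0.00289 with neutered dogs only, and ran from -0.00184 to 0.00365 without single tumours. The cause of these shifts was not tested. No scaling moved the median difference by over 0.1. No paired analysis was possible because the labels give no number or dog that links tumours across breeds. The 12 tumours of other breeds, and 2 or 3 for a single breed, limit the precision.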
